A study of Homo sapiens with 4 samples.

Results

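Strong loops are the anchor pairs that gathered the most paired-end tags (PETs) in SMC1 ChIA-PET libraries of Kelly neuroblastoma cells. Strong loops were chosen by their summed PET count and span. A pair was counted as one when both anchors lay on the same chromosome, its PETs summed over the shBORIS and shLUC tables numbered at least 20, and the midpoints of its anchors were less than 500 kb apart. This left 882 of 147452 intrachromosomal pairs and of 720049 anchor pairs of every kind. They made up 0.598% of the intrachromosomal pairs and held 8.80% of the intrachromosomal PETs in shBORIS and 8.64% in shLUC. Because the rule used them, strength and span are descriptions here. The split of the PETs between the tables, the width of the anchors and their interchromosomal PETs took no part in the choice.

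Kelly is an established neuroblastoma line, and all cells here were resistant to TAE684, an inhibitor of the kinase ALK that was present at 1 µM in both groups. One group received virus with the shBORIS construct and the control group virus with shLUC, for 24 h before 48 h of puromycin selection. Each group had 2 libraries, but its deposited table pools both, so no value below has a replicate error. The labels do not say whether the 2 came from separate cultures or hairpins, and BORIS levels were not analysed here.

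SMC1 is a core subunit of cohesin, the ring complex that draws DNA into loops until it meets a barrier, most often the DNA-binding protein CTCF. Distant sites held together by cohesin can be ligated to each other, and ChIA-PET reads both ends of such a product as a PET. BORIS is encoded by CTCFL, a relative of CTCF that binds many of the same motifs and is normally expressed in the germ line. Contacts between anchors can also arise by random ligation, which joins fragments of any chromosomes and is therefore visible in interchromosomal PETs.

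In shBORIS 163041 of 449979 PETs were intrachromosomal, and in shLUC 146140 of 434975. Ratios of shBORIS to shLUC were scaled by those intrachromosomal totals, or by the interchromosomal totals of 286938 PETs in shBORIS and 288835 in shLUC for interchromosomal PETs. Those for other intrachromosomal contacts of strong-loop anchors were scaled by the intrachromosomal PETs outside strong loops. Intervals are at 95%, by the Clopper-Pearson method (chi-square for the spread). Those of ratios and of the spread allow for counting error alone, and PCR copies are not independent molecules. Those of shares of loops take the loops as independent, although sharing and nesting tie loops to each other. Positions are on hg19, with the first base of a chromosome numbered 1.

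A strong loop had a median of 14 PETs in shBORIS, from 3 to 114, and of 13 in shLUC, from 0 to 73. The sum had a median of 25 and quartiles of 22 and 33. Most loops, 595, had 20 to 29 PETs, 213 had 30 to 49, 69 had 50 to 99 and 5 had 100 or more. In a single table, 186 loops reached 20 PETs in shBORIS and 138 did so in shLUC. At the threshold, 124 loops under 500 kb had exactly 20 PETs and 126 pairs had exactly 19. Those with 20 had a median span of 53.2 kb and a scaled ratio of 1.05, and those with 19 had 34.0 kb and 0.968.

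From the interchromosomal PETs of both anchors, the number of PETs that random ligation predicted per loop had a median of 0.00751 and a maximum of 0.245. Each loop had at least 20 by the rule, so a sum above the predicted one was fixed by the choice of loops and is no result. Of the 882 loops, 879 reached 3 PETs and a Bayes probability of 0.9 in each table, as did 93.6% of all pairs with at least 10 PETs. This share rests on the same PET counts, and nothing is read from it. The other 3 were 2 loops of a chromosome 10 anchor with 0 PETs in shLUC, and a chromosome 12 loop with 3 PETs and a Bayes probability of 0.828 in shBORIS.

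On a log scale, spans fell into a short and a long set. The ranges counted below differ in width, so their counts are not densities per kb. The median span was 56.8 kb, with quartiles of 12.3 and 121 kb and extremes of 0.863 and 481 kb. Below 5 kb there were 73 loops under 2 kb and 99 of 2 to 5 kb, whereas only 40 spanned 5 to 10 kb and 48 spanned 10 to 20 kb. The long set comprised 148 loops of 20 to 50 kb, 201 of 50 to 100 kb, 170 of 100 to 200 kb, 69 of 200 to 300 kb, 23 of 300 to 400 kb and 11 beyond. Of the short set, 171 loops joined anchors less than 1 kb apart, and the smallest gap was 1 bp. Of the 171, 170 joined neighbouring anchors. The random ligation prediction takes no account of span, and whether such pairs are contacts of separate sites was not tested. Without the 171 loops the median span was 75.8 kb.

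**Figure D1:**
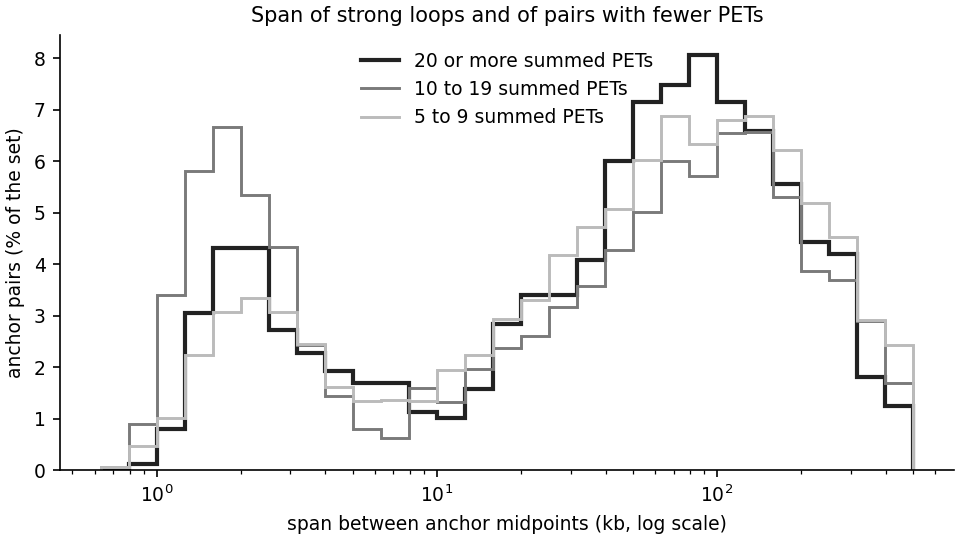
Distribution of span on a log scale, as the percentage of each set per bin, for the 882 strong loops and for pairs under 500 kb with 10 to 19 or 5 to 9 summed PETs. All 3 sets have a peak near 2 kb and a broad one near 100 kb. Pairs with 10 to 19 PETs have the highest peak near 2 kb.

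Among strong loops, the short set was rarer in those with more PETs. Loops under 20 kb were 34.3% of those with 20 to 29 PETs, 20.2% of those with 30 to 49 and 17.6% of those with 50 or more. Their medians were 50.8, 59.7 and 72.9 kb in the same order. Pairs below the threshold did not continue this order. Of those with 10 to 19 PETs 39.1% spanned under 20 kb, of those with 5 to 9 PETs 28.6%, of those with 3 to 4 PETs 21.4% and of those with 1 to 2 PETs 12.4%. Their medians were 43.2, 58.8, 71.8 and 112 kb in the same order. These are counts of the same tables that ranked the loops, and no test was applied.

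The 5 longest loops spanned 452 to 481 kb and had 20 to 75 PETs. On chromosome 7 a loop of 481 kb joined 54841010-54842693 and 55321459-55324355 with 16 PETs in shBORIS and 9 in shLUC. One of 466 kb on chromosome 12, from 1226492-1228449 to 1691679-1694335, had 11 PETs in shBORIS and 10 in shLUC. The strongest of the 5 spanned 464 kb on chromosome 17, from 70719270-70726789 to 71182875-71190282, with 44 PETs in shBORIS and 31 in shLUC. It passed over 31 other anchors. The last 2 of the 5, on chromosome 1 at 460 kb and on chromosome 12 at 452 kb, each had 10 PETs in shBORIS and 10 in shLUC.

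The 5 shortest loops joined neighbouring anchors and spanned 0.863 to 1.13 kb. On chromosome 4, 150999319-151000119 contacted 151000224-151000940 with 11 PETs in shBORIS and 9 in shLUC. Chromosome 1 had one of 1.02 kb from 27114441-27115098 to 27115129-27116457, with 16 PETs in shBORIS and 8 in shLUC. Those on chromosomes 11 and 9 had 10 and 12 PETs in shBORIS and 10 and 14 in shLUC. The chromosome 12 loop of 1.05 kb had 3 PETs in shBORIS and 18 in shLUC and is described with the ratios.

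Most long loops passed over other anchors. Of all 882, 262 joined neighbouring anchors and 620 had at least 1 anchor between their ends. The median was 2 anchors between, 97 loops had 10 or more, and the maximum was 44. Among loops under 20 kb 84.6% joined neighbours, against 9.46% of those of 20 to 100 kb and 3.30% of those of 100 to 500 kb.

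For 651 loops, or 73.8%, the partner was the strongest intrachromosomal contact of both anchors. For 175 this held at 1 end only and for 56 at neither. A loop took a median of 31.2% of the intrachromosomal PETs of its busier anchor and 45.7% of those of the other. It exceeded 50% at both ends in 128 loops.

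Anchors of strong loops were wider and more covered than other anchors. The 882 loops used 1468 distinct anchors, 3.72% of the 39507 in the tables. Their median width was 1972 bp (quartiles 1582 and 2750, range 658 to 13521), against 1157 bp (931 and 1398) for the 38039 anchors of no strong loop. Anchors of 3000 bp or more made up 20.4% of the first set and 1.36% of the second. Interchromosomal PETs, which the choice of loops did not use, had a median of 82 per strong-loop anchor and of 21 per other anchor. Per kb of anchor the medians were 38.3 and 18.4.

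Width and coverage moved together, and at equal coverage the widths were closer. Among anchors with 20 to 39 interchromosomal PETs the median was 1424 bp for the 111 of strong loops and 1256 bp for the 13724 others. With 40 to 79 PETs it was 1664 bp for 531 anchors of strong loops and 1566 bp for 6172 others. With 80 or more it was 2554 bp for 782 and 2476 bp for 874. The share of anchors that belonged to a strong loop was 0.275% with 10 to 19 interchromosomal PETs and 47.2% with 80 or more. The part of coverage in this difference was not tested further.

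Strong loops lay on 23 chromosomes but unevenly. Chromosome 17 held 152, or 17.2% of the loops with 6.09% of the anchors, and chromosome 1 held 145. Per 1000 anchors, chromosome 17 had 63.2 loops, chromosome 9 had 39.8, chromosome 20 had 38.4 and chromosome 1 had 32.1, against 22.3 over the genome. The lowest values were 3.25 on chromosome X, 4.66 on chromosome 13 and 5.23 on chromosome 8. Interchromosomal PETs per anchor followed the same order in part: chromosome 17 had 36.2, chromosome 20 had 35.6, chromosome 9 had 30.8 and chromosome X had 19.8. Over the 23 chromosomes, which are not replicates and share both tables, both measures ran together (Pearson's r 0.86, Spearman's rho 0.88). DNA copy number was not analysed here.

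**Figure D2:**
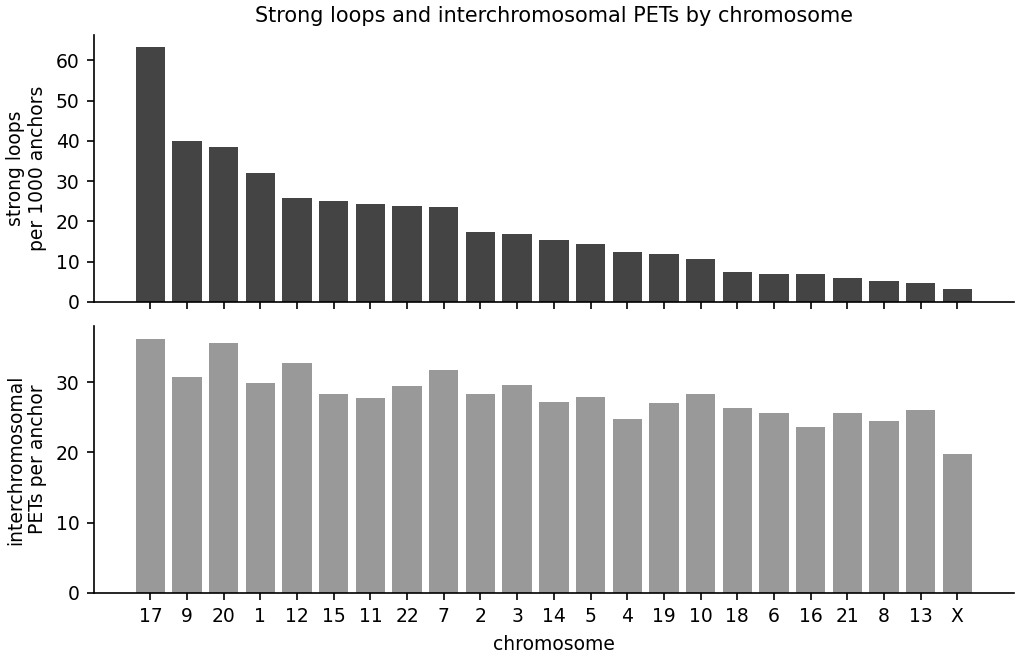
Strong loops per 1000 anchors (upper bars) and interchromosomal PETs per anchor, summed over both tables (lower bars), for 23 chromosomes in order of the upper value. Chromosome 17 stands highest in both, at 63.2 loops per 1000 anchors and 36.2 PETs per anchor.

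Within chromosomes the loops came in groups. They occupied 410 windows of 1 Mb, of which 170 held at least 2 loops and 38 held at least 5. The densest window, at 71 to 72 Mb of chromosome 17, had 19 loops among 131 anchors. Next were 156 to 157 Mb of chromosome 1 with 17 loops among 90 anchors, and 46 to 47 Mb of chromosome 17 with 15 loops among 53. The union of all loops from outer edge to outer edge covered 62.9 Mb.

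Of the 882 loops, 390 shared an anchor with another strong loop, or 44.2% (40.9 to 47.6), and 132 of these did so at both ends. The share was 67.1% on chromosome 17, 60.4% on chromosome 9 and 54.5% on chromosome 3, and 22.4% on chromosome 7. Without chromosome 17 it was 39.5%. Of the 390 sharing loops, 63 joined anchors less than 1 kb apart. Of the anchors, 1242 took part in 1 strong loop, 175 in 2, 37 in 3, 10 in 4, 3 in 5 and 1 in 6. Anchors in 1 loop had a median width of 1819 bp and 76 interchromosomal PETs. Those in 2 loops had 2651 bp and 119, those in 3 had 3874 bp and 176, and those in 4 had 4558 bp and 204.

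The anchor with 6 strong loops lay at 71634009-71644664 on chromosome 17 and was 10656 bp wide. Its strong loops had 151 PETs in shBORIS and 107 in shLUC, and its other intrachromosomal contacts 147 in shBORIS and 96 in shLUC. Of those with 5 strong loops, 71577344-71586974 on the same chromosome had 122 PETs in shBORIS and 88 in shLUC on them. At 46067619-46075229 of that chromosome the values were 194 in shBORIS and 105 in shLUC, and at 46054835-46058479 they were 124 in shBORIS and 74 in shLUC. Among the 10 anchors with 4 strong loops, the one with the most intrachromosomal PETs lay at 137976589-137982937 on chromosome 9, with 85 PETs on strong loops in shBORIS and 80 in shLUC.

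Loops linked through shared anchors formed chains. There were 134 chains of at least 2 loops, 82 of them pairs, 20 of 3 loops and 18 of 4. Chains of 5 or more numbered 14 and held 94 loops, and 7 of the 14 lay on chromosome 17. They stretched over 41.9 to 329 kb. Pairs of loops with a common anchor numbered 391. In 254 both loops left the anchor on the same side, so that one lay within the other, and in 137 they lay end to end.

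End-to-end loops were often bridged. The outer anchors of the 137 end-to-end pairs had a median of 12 PETs with each other (quartiles 4 and 24). In 42 cases, or 30.7%, the outer pair was itself a strong loop, so that 3 anchors were joined all ways, and 23 of these 42 triangles lay on chromosome 17. In 4 cases the outer anchors had 0 PETs. Triangles drew on 90 loops.

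The largest chain, at 46054835-46096731 on chromosome 17, joined 6 anchors within 41.9 kb by 12 strong loops, out of 15 possible pairs. The 3 remaining pairs had 14, 5 and 16 summed PETs. Its strongest loop, from 46067619-46075229 to 46079167-46083101, had 79 PETs in shBORIS and 47 in shLUC. The loop over the whole chain, from 46054835-46058479 to 46094537-46096731, had 45 in shBORIS and 32 in shLUC, and it enclosed the other 11. From the first anchor to those at 46067619 and 46079167 there were 25 and 17 PETs in shBORIS, and 11 and 7 in shLUC. Before scaling, only 1 of the 12 loops, from 46058786-46060970 to 46079167-46083101, had fewer PETs in shBORIS (8) than in shLUC (12). The loop from 46079167-46083101 to 46086704-46094392, with 22 in shBORIS and 20 in shLUC, also had a ratio below 1 after scaling.

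**Figure D3:**
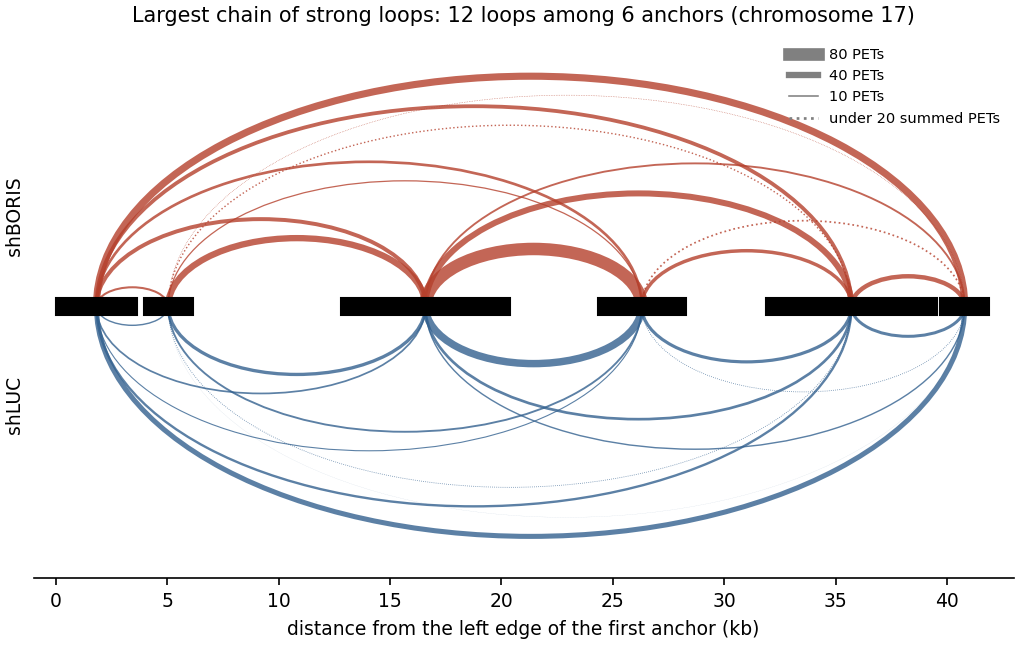
The largest chain of strong loops, with its 6 anchors as black boxes to scale along the distance in kb, contacts in shBORIS above and in shLUC below the line, and line width proportional to PETs. Dotted lines are the 3 pairs under 20 summed PETs. The thickest arc is the loop with 79 PETs in shBORIS and 47 in shLUC.

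The second chain, at 71424397-71710475 on chromosome 17, linked 8 anchors by 11 strong loops of 28 possible pairs. It had 231 PETs in shBORIS and 164 in shLUC on them. Its strongest loop joined 71577344-71586974 to 71634009-71644664 over 57.2 kb, with 57 PETs in shBORIS and 39 in shLUC.

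On chromosome 15 a chain at 78910184-79002613 linked 6 anchors by 9 of 15 possible pairs. It held the strongest loop of all, which joined 78963240-78965595 to 78972376-78975497 with 114 PETs in shBORIS and 73 in shLUC and took over 60% of the intrachromosomal PETs at both ends, 63.0% and 64.5%. That loop lay inside 4 others. The outermost, from 78910184-78914803 to 79000300-79002613, had 16 PETs in shBORIS and 9 in shLUC. Between 78972376-78975497 and 79000300-79002613 there were 22 in shBORIS and 4 in shLUC.

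More loops were nested in another than crossed another. A loop was counted as nested when it lay between the outer edges of another strong loop. This held for 235 loops, or 26.6% (23.8 to 29.7), of which 85 lay strictly between the anchors of another and 150 shared an anchor with every loop around them. Nested loops had a median span of 33.6 kb and the 180 loops that held another 95.5 kb. Of the 273 loops of 100 kb or more, 87 held another. Neither nested nor holding were 526 loops. Crossing, with 1 anchor inside and 1 outside another loop, was found for 22 loops, 2.49%. Loops with a common anchor can be nested but cannot cross each other. The closer comparison is therefore with the 85 strictly nested loops, 9.64%. Of the 235 nested loops, 54 joined anchors less than 1 kb apart.

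The deepest nest was in the largest chain, where the loop from 46067619-46075229 to 46079167-46083101 lay inside 6 others. In all 31 loops lay inside 3 or more. Of the loops of chromosome 17 47.4% were nested and of those of chromosome 9 50.9%, against 10.3% on chromosome 7. Without chromosome 17 the share was 22.3%.

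Contacts among other anchors were fewer across the ends of strong loops than inside them. For the 474 loops of 50 kb or more, anchors of no strong loop were paired with each other and sorted by span, each pair counted once and PETs not scaled between the tables. Pairs of anchors 20 to 50 kb apart inside a loop had 403 PETs per 1000 possible pairs in shBORIS and 347 in shLUC. Pairs in the same range of span with a loop end between them had 98.5 in shBORIS and 90.5 in shLUC. A pair with a loop end between its anchors counted as across even where another loop held both. Spans were not matched within a range. The ratio of inside to across was 4.09 in shBORIS and 3.84 in shLUC. At 50 to 100 kb it was 3.46 in shBORIS and 4.20 in shLUC, and at 100 to 200 kb 5.02 in shBORIS and 5.11 in shLUC. At 20 to 50 kb random ligation predicted 0.590 PETs per 1000 pairs inside and 0.651 across, summed over both tables. The cause of the difference between inside and across was not tested.

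At 10 to 20 kb the ratio of inside to across was 3.56 in shBORIS and 6.53 in shLUC. Only 46 PETs in shBORIS and 20 in shLUC crossed a loop end at that span, a scaled ratio of 2.06 (1.20 to 3.68). Inside the loops 583 PETs were counted in shBORIS and 465 in shLUC, or 1.12 (0.993 to 1.27). The difference between these ratios was not tested, and the 3 longer spans had ratios across of 0.976, 1.07 and 0.936.

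**Figure D4:**
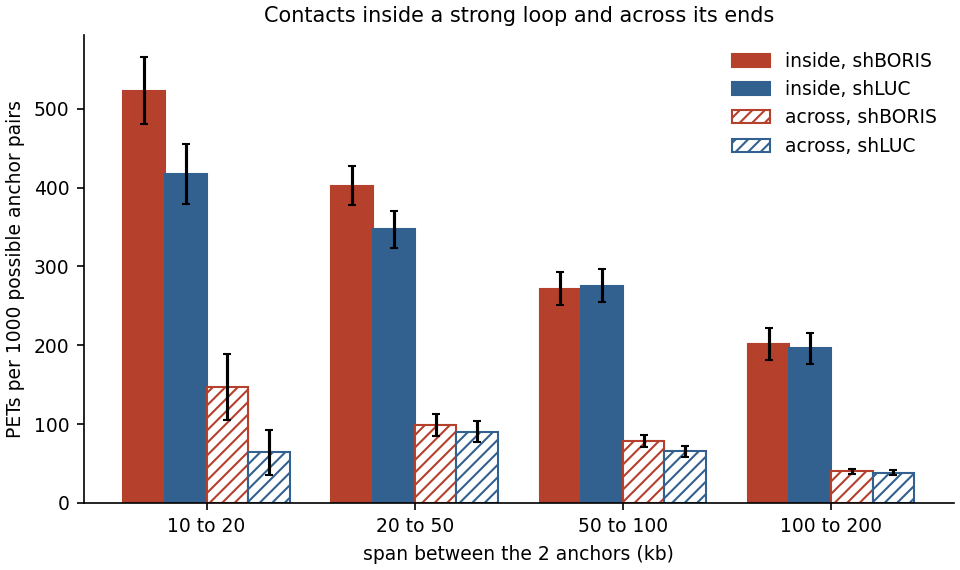
PETs per 1000 possible pairs of anchors that belong to no strong loop, by span, for pairs inside a strong loop of 50 kb or more (filled) and across a loop end (hatched), in shBORIS and shLUC. Error bars are 1.96 Poisson SD of the PET count. The filled bars are 3.46 to 6.53 times the hatched ones of the same table.

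Between the groups, the share of intrachromosomal PETs on strong loops differed by less than counting error. They held 14343 PETs in shBORIS and 12629 in shLUC, a scaled ratio of 1.02 (0.994 to 1.04). Scaled to all PETs of a table the ratio was 1.10 (1.07 to 1.12), because the intrachromosomal share itself was larger in shBORIS, and scaled to intrachromosomal PETs under 500 kb it was 0.996 (0.972 to 1.02). Loops under 20 kb had a ratio of 1.04 (0.989 to 1.08), those of 20 to 100 kb had 1.02 (0.987 to 1.06) and longer ones had 0.994 (0.953 to 1.04). Over all pairs of those spans it was 1.08, 1.03 and 0.981. Loops with 50 or more PETs had 2824 PETs in shBORIS and 2339 in shLUC, which is 1.08 (1.02 to 1.14), and those with 20 to 29 had 0.994 (0.961 to 1.03).

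Loops were tested singly for their share of intrachromosomal PETs. By Fisher's exact test, with Benjamini-Hochberg adjustment over the 3951 pairs of at least 10 PETs, 2 of 882 strong loops were higher in shBORIS and 0 lower. Over all pairs tested 0.0506% were called higher and 0% lower. With an unadjusted p under 0.05, 36 strong loops, 4.08%, were higher and 26, 2.95%, lower, against 3.06% and 2.63% of all pairs tested. The test compares 2 pooled tables, not the conditions.

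Both called loops started at 42383016-42386173 on chromosome 10. The one to 42389829-42395064 had 33 PETs in shBORIS and 0 in shLUC, with an adjusted p of 5.38e-06 by Fisher's exact test and a lower limit of the ratio of 7.58. The one to 42395474-42397430 had 26 in shBORIS and 0 in shLUC, with an adjusted p of 0.000124 by the same exact test and a lower limit of 5.88. Their common anchor had 475 interchromosomal PETs in shBORIS and none of any kind in shLUC. When it was left out, 0 strong loops were called by Fisher's exact test, the smallest adjusted p was 0.466, and 60 loops had an unadjusted p below 0.05. When a negative binomial dispersion of 0.1 was assumed, 0 were called, the smallest adjusted p was 0.0563, and 10 loops had an unadjusted p below 0.05.

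Besides those 2, the 3 loops with the highest ratios had 3 or 4 PETs in shLUC. On chromosome 6, 41335013-41337623 contacted 41568985-41572051 with 18 PETs in shBORIS and 3 in shLUC, a scaled ratio of 5.38 (1.57 to 28.5). A chromosome 5 loop from 169526783-169528512 to 169642824-169644073 had 17 in shBORIS and 3 in shLUC, or 5.08 (1.47 to 27.0). The chromosome 15 pair with 22 in shBORIS and 4 in shLUC had 4.93 (1.67 to 19.7). Adjusted p-values of the 3 were 0.471, 0.471 and 0.313 by Fisher's exact test, so none passed.

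Among the lowest ratios, the chromosome 12 loop from 118312167-118313491 to 118313525-118314241 had 3 PETs in shBORIS and 18 in shLUC, which gave 0.149 (0.0282 to 0.512) and an adjusted p of 0.233 by Fisher's exact test. Also on chromosome 12, 3351103-3354399 and 3356352-3357974 had 4 in shBORIS and 16 in shLUC, or 0.224. A chromosome 10 loop from 80732037-80735357 to 80825693-80831726 had 5 in shBORIS and 18 in shLUC, or 0.249. The remaining 2 were on chromosome 1, from 94094444-94096111 to 94278943-94280488 with 5 in shBORIS and 17 in shLUC, and on chromosome 7, from 18860654-18862240 to 18885337-18887982 with 6 in shBORIS and 20 in shLUC. Their adjusted p-values by Fisher's exact test lay between 0.464 and 0.511.

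The 10 strongest loops, with 94 to 187 summed PETs, had ratios from 0.784 to 1.60. The highest was that of a chromosome 17 loop of 135 kb between 47937247-47940668 and 48071814-48076569, with 75 PETs in shBORIS and 42 in shLUC (interval 1.08 to 2.39, adjusted p of 0.689 by Fisher's exact test). A loop of 360 kb on chromosome 3, from 187035905-187038784 to 187395885-187398680, had the lowest, with 49 in shBORIS and 56 in shLUC.

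The log2 scaled ratio had a median of -0.02 and quartiles of -0.42 and 0.43 over the 880 loops with PETs in both tables. Of all 882, a ratio of at least 1.5 was reached by 145 loops and one of at most its inverse by 131. For at least 2-fold the numbers were 51 and 43. The 145 and the 51 include the 2 loops of the chromosome 10 anchor. The same counts over all pairs were not made. Counting error alone gave an SD of the log2 ratio of 0.558, against 0.634 found, so nothing is read from these counts. Over the 882 loops, the mean squared deviation from the expected split was 1.25 times that of counting error (1.15 to 1.38). It was 1.20 (1.09 to 1.32) without the 2 loops of the chromosome 10 anchor. The deviation was 1.15 (1.03 to 1.29) for loops with 20 to 29 PETs, 1.39 (1.16 to 1.70) for 30 to 49 and 1.71 (1.27 to 2.43) for the 74 with 50 or more. For pairs with 10 to 19 PETs it was 1.22 (1.16 to 1.29). At a constant excess variance of the ratio this measure rises with PETs per loop. The order therefore does not show that stronger loops vary more. The values for 20 to 29 and 30 to 49 PETs keep the chromosome 10 anchor, whose loops have 26 and 33 PETs. By span, without the chromosome 10 anchor, this deviation was 1.32 under 20 kb, and it was 1.24 at 20 to 100 kb and 1.02 (0.872 to 1.22) at 100 to 500 kb. With pooled tables, spread between libraries of a group and between groups cannot be told apart.

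**Figure D5:**
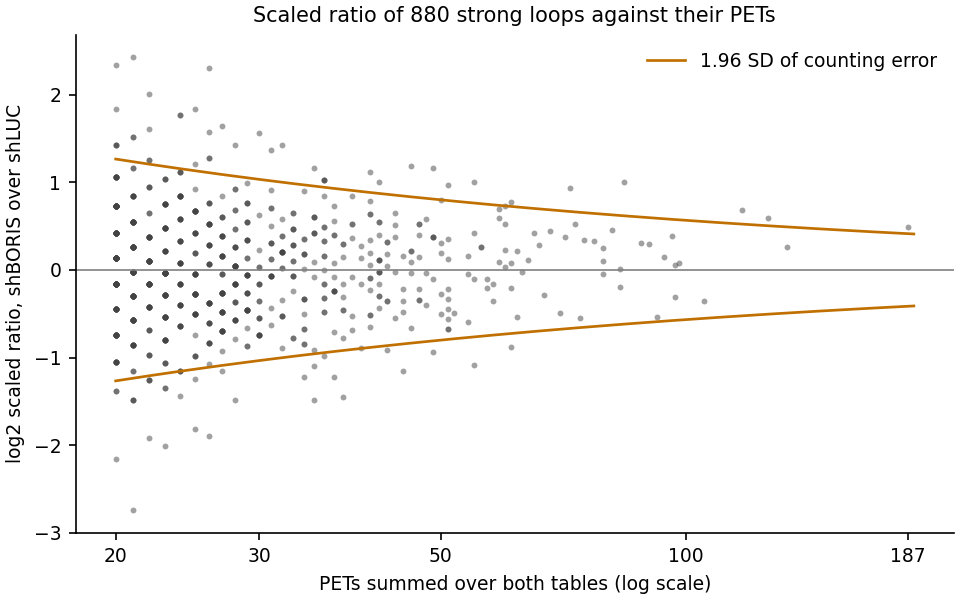
Log2 scaled ratio of shBORIS over shLUC against summed PETs on a log scale for the 880 strong loops with PETs in both tables, one point per loop. The curves mark 1.96 SD of counting error. The points narrow toward 0 with more PETs, and the strongest loop, at 187 PETs, lies just above the upper curve.

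Loops in long chains had higher ratios than single ones, and those in short chains had ratios close to them. The 390 loops that shared an anchor had 7066 PETs in shBORIS and 5972 in shLUC, a scaled ratio of 1.06 (1.02 to 1.10), whereas the 492 that shared none had 7277 in shBORIS and 6657 in shLUC, or 0.980 (0.948 to 1.01). Sharing loops had 1.05 (1.02 to 1.09) without the chromosome 10 anchor. Without chromosome 17 they had 1.03 (0.994 to 1.08), a value that keeps the chromosome 10 anchor. The highest value was that of the long chains. The 94 loops in chains of 5 or more had 2086 in shBORIS and 1548 in shLUC, which is 1.21 (1.13 to 1.29), and those in chains of 2 to 4, without the chromosome 10 anchor, had 0.997 (0.957 to 1.04). The ratio in chains of 5 or more was 1.17 (1.09 to 1.26) without the largest chain and 1.19 (1.08 to 1.31) without chromosome 17. It was above 1 in 11 of the 14 chains. The median log2 ratio per loop was 0.30 in chains of 5 or more, -0.03 in chains of 2 to 4 and -0.02 in loops that shared no anchor. Without chromosome 17 it was -0.02 both in loops that shared an anchor and in those that shared none.

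In the largest chain it was 1.44 (1.21 to 1.71), and in the chromosome 15 chain 1.45 (1.18 to 1.78). A chain of 7 loops at 128144166-128218156 on chromosome 3 had 151 PETs in shBORIS and 88 in shLUC, which is 1.54 (1.17 to 2.02). The lowest was 0.771 (0.601 to 0.988) at 139377888-139526710 on chromosome 9, with 123 in shBORIS and 143 in shLUC. This grouping was chosen after the values were seen and was not tested.

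The anchors themselves differed in the same direction. Interchromosomal PETs at the 78 anchors of chains of 5 or more had a scaled ratio of 1.13 (1.09 to 1.18), against 1.05 (1.03 to 1.06) at those of chains of 2 to 4 and 1.03 (1.02 to 1.04) at those of single loops. The chain of the chromosome 10 anchor was left out here, with its partner anchors. Median coverage was 143, 97 and 74 interchromosomal PETs per anchor in the same order. Over all anchors in the tables, those with 80 or more interchromosomal PETs had a ratio of 1.04 and those with 1 to 19 a ratio of 0.972. The part of coverage in the ratio of chained loops was not tested.

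Over all strong loops, interchromosomal PETs at their anchors had a ratio of 1.05 (1.04 to 1.06), and 1.04 (1.03 to 1.05) without the chromosome 10 anchor, against 0.994 at other anchors. Other intrachromosomal contacts of the same anchors had 35784 PET ends in shBORIS and 29909 in shLUC. A PET between 2 such anchors counts at both, and the interval takes the ends as independent. Scaled by the intrachromosomal PETs outside strong loops, the ratio of these contacts was 1.07 (1.06 to 1.09), beside 1.02 for the strong loops. In the test per anchor of interchromosomal PETs, 3 of 1461 strong-loop anchors were higher in shBORIS and 0 lower by Fisher's exact test with adjustment, against 0.014% and 0% of all anchors tested. Unadjusted, 6.16% were higher and 1.98% lower, against 3.09% and 2.47% of all. For contacts other than strong loops 1 of 1380 was higher and 0 lower (0.0102% and 0.00512% of all tested), and unadjusted 69 were higher and 22, 1.59%, lower, against 3.16% and 3.05% of all. Strong-loop anchors have more PETs than others, and the shares were not matched for that.

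A loop's ratio followed that of its anchors weakly. Over 880 loops without the chromosome 10 anchor, the log2 ratio of a loop and that of the interchromosomal PETs of its anchors had a Pearson's r of 0.20 and a Spearman's rho of 0.22. Across terciles of the anchors' interchromosomal ratio the loops had ratios of 0.926 (0.888 to 0.967), 0.990 (0.950 to 1.03) and 1.13 (1.08 to 1.18), from the lowest to the highest. For 390 pairs of loops with a common anchor r was 0.19. For 393 pairs of loops next to each other within 1 Mb without a common anchor it was 0.00417. These are descriptions of counts from the same 2 tables.

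Among chromosomes the ratio of strong loops was highest on chromosome 18, with 58 PETs in shBORIS and 38 in shLUC on 4 loops, which is 1.37 (0.893 to 2.12). Of chromosomes with at least 30 loops, chromosome 15 had 1.17 (1.04 to 1.32), chromosome 3 had 1.15 (1.03 to 1.28) and chromosome 17 had 1.10 (1.04 to 1.16). On chromosome 15, 1 chain of 9 loops held 251 of 602 PETs in shBORIS and 155 of 461 in shLUC. On chromosome 3, 1 chain of 7 loops held 151 of 792 in shBORIS and 88 of 618 in shLUC. The chromosome ratios without these chains were not computed. The other intrachromosomal pairs of chromosomes 15, 3 and 17 had ratios of 1.05, 0.944 and 1.06. On chromosome 3 strong loops and other contacts thus lay on opposite sides of 1. The lowest value was on chromosome 13, where 4 loops had 37 PETs in shBORIS and 59 in shLUC, which is 0.562 (0.362 to 0.862), and each of the 4 was lower in shBORIS. Chromosome 4, with 0.840 over its other pairs, had 0.983 (0.825 to 1.17) over 19 strong loops. These 23 ratios were not tested.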

How the data were processed

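Per the labels, the 2 libraries of a group point to a single deposited table, which was taken to pool them. Values are the PET count of each anchor pair, an unnormalized whole-number count, with the authors' hypergeometric p-value and Bayes probability (a fraction from 0 to 1), per the file headers. The shBORIS table has no header and was read in the order of the other, which has the same 9 columns. Per the submitters' processing notes, cutadapt 1.8 and Bowtie were used and the build was hg19. The program that set anchors and scored pairs is not given in the sources used here.

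Tables were joined on identical anchors. Starts were raised by 1 on the assumption that the files count from 0. Strong loops, spans (midpoint to midpoint), chains and nests were computed with Python 3.11.15, numpy 2.4.6, pandas 2.3.3 and scipy 1.17.1. The test was a two-sided Fisher's exact test for each pair or anchor with at least 10 PETs, adjusted by Benjamini-Hochberg at 0.05 and tested on simulated data. Correlations of log2 ratios used 0.5 added to each count. Expected random PETs were the product of both anchors' interchromosomal PETs, scaled so that the interchromosomal total is met. Regions were named by rule: the 10 strongest, 5 longest, 5 shortest, 5 highest and 5 lowest ratios, those called, up to 5 anchors in most loops, the largest chain and the deepest nest. The other chains, windows and chromosome values were named after they were seen. The members and lists were chosen with earlier results of these data known. Genes, motifs and sequences at anchors were not analysed here, since no annotation or genome of hg19 was used. Alternatives varied the PET minimum, span measure, scaling, filter, dispersion and rules for sharing and nesting.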

Additional observations from a re-analysis of the deposited data

Results flagged for a closer look

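Interchromosomal PETs took no part in the choice of strong loops. By Fisher's exact test with adjustment, they were higher in shBORIS than in shLUC at 3 of the 1461 strong-loop anchors tested. Over all 35637 anchors tested, 5 were called higher, or 0.014%. The anchor at 42383016-42386173 on chromosome 10 had 475 in shBORIS and 0 in shLUC, with a lower limit of the ratio of 129 and an adjusted p of 6.26e-140 by Fisher's exact test. It starts both strong loops that passed the test, and why the shLUC table lacks it was not tested. Its p-value cannot tell a changed count from a missing anchor. At 46067619-46075229 on chromosome 17 there were 189 in shBORIS and 94 in shLUC, or 2.02 after scaling (1.57 to 2.62), with an adjusted p of 0.000211 by Fisher's exact test. That anchor belongs to 5 strong loops, which had 194 PETs in shBORIS and 105 in shLUC. At 204326759-204329945 on chromosome 1 there were 78 in shBORIS and 25 in shLUC, or 3.14 after scaling (1.98 to 5.14), with an adjusted p of 0.00115 by Fisher's exact test. Its 1 strong loop had 14 PETs in shBORIS and 6 in shLUC.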

How the results depend on the processing

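Over 16 results, 55 alternatives were run, of which 40 were planned and 15, those without the chromosome 10 anchor, chromosome 17 or pairs under 1 kb apart and those with loops of at least 100 kb, were chosen after seeing the data. Of these, 34 stayed within 1.5 times the count or inside the counting interval and 21 moved beyond it. With a minimum of 15 PETs there were 1766 loops, of which 48.7% shared an anchor and 31.0% were nested. With a minimum of 30 there were 287, with a pooled ratio of 1.04, a spread of 1.47, a median span of 64.9 kb, 34.1% sharing an anchor and 20.2% nested. Scaled to all PETs, the pooled ratio was 1.10, and by span 1.12, 1.11 (1.06 to 1.15) and 1.07. The median of the loops' own ratios was 0.986. The loops past the test became 0 with a dispersion of 0.1 and 0 without the chromosome 10 anchor. Without pairs under 1 kb apart the median span was 75.8 kb. Without chromosome 17, 39.5% shared an anchor and 22.3% were nested. With all chromosomes, 9.64% were nested strictly between the anchors of another loop. Counted once per loop, anchors had a median width of 2138 bp. No paired analysis was possible because the tables hold no separate libraries, which also means that none could be left out. Depth limits the test per loop: 18 PETs in shBORIS against 3 in shLUC did not pass.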

Other observations

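Of the pairs with at least 20 PETs, 8 spanned 500 kb or more and were left out. They had 133 PETs in shBORIS and 127 in shLUC, a scaled ratio of 0.939 (0.731 to 1.21), and none passed the test. Of these, 3 ended at the same anchor on chromosome 1, 211305776-211309670, and joined it to sites 549, 686 and 727 kb away. The nearest of them had 39 PETs in shBORIS and 27 in shLUC, the next 8 in shBORIS and 18 in shLUC, and the farthest 10 in each.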
